A study of Mus musculus with 2 samples.

Results

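The 7 interferon regulatory factor (IRF) genes Irf2, Irf3, Irf4, Irf5, Irf7, Irf8 and Irf9 were followed in the H3K4me3 peak lists of lung group 2 innate lymphoid cells (ILC2s). They were found by symbol among the 21951 protein-coding genes of the GENCODE annotation of GRCm38, and every listed peak that overlapped the gene body or lay within 1000 bp of any annotated transcript start was taken. This gave 11 of 42126 peaks in offspring of control mothers and 8 of 51610 in offspring of asthmatic mothers. Other IRF genes were not analysed here.

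Each group was 1 library of about 3000 ILC2s, sorted from the lungs of 8-week-old C57BL/6J offspring as CD45+ cells that lacked lineage markers and carried ST2. Asthmatic mothers were sensitized by injection with 100 µg ovalbumin (OVA) in alum, mated with untreated males and given 500 µg OVA intranasally from gestation day 4 to 17. Control mothers were injected with alum alone and given PBS. Mothers of both groups were thus given alum and mated alike. H3K4me3 was measured by CATCH-seq, a native chromatin immunoprecipitation for few cells in which carrier DNA is added. With 1 library per group there was no replicate check for any value below, no test was possible, and differences between the lists describe these libraries.

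IRFs are transcription factors that bind GAAA repeats through a conserved N-terminal domain. Such repeats form the interferon-stimulated response element (ISRE). IRF3 and IRF7 are phosphorylated downstream of nucleic acid sensors and switch on type I interferon genes, and IRF5 acts below MyD88-dependent receptors on inflammatory cytokine genes. IRF9 is the part that binds ISREs in the complex formed in response to interferon, IRF2 mostly opposes activation at ISREs, and IRF4 and IRF8 work with partner factors in lymphocytes, dendritic cells and macrophages. H3K4me3 marks the nucleosomes next to active or poised transcription starts, and broad H3K4me3 domains are known from genes of cell identity.

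The sequence just before the starts differed among the genes, and it is shown for those whose peaks are described most closely. All stretches are from GRCm38 (RefSeq assembly), are written 5′ to 3′ along the gene, and have capitals where they match GAAANNGAA, a core of the ISRE, or TTCNNNGAA, a core of the GAS element that STAT dimers bind. For Irf2 and Irf8 the 250 bases before the first annotated start are shown because they hold matches. These are chr8:46739482-46739731 and chr8:120736108-120736357, both on the plus strand.
Irf2: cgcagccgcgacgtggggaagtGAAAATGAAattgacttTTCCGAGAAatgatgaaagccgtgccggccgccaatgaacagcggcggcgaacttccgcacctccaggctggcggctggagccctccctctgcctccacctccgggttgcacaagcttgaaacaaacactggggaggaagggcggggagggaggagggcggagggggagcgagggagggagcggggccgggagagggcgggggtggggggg
Irf8: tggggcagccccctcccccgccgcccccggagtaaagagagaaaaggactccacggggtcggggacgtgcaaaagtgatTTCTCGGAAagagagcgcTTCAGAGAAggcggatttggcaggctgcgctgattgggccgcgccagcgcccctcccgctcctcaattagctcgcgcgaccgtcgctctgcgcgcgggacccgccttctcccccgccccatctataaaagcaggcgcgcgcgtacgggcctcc

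The same stretch of Irf4, chr13:30748976-30749225 on the plus strand, held neither core. It is shown beside Irf8 because both genes had a peak in the control list alone.
Irf4: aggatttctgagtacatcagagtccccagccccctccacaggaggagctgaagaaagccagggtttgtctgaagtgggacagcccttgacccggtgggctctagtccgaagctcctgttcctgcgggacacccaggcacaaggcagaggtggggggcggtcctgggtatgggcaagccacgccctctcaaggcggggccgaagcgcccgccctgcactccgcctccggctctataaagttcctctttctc

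For Irf9 the 164 intron bases of its 1 peak, chr14:55604244-55604407 on the plus strand, are shown because this peak covered no annotated start and lay between the starts at 414 and 1006 bp from the first. They hold neither core.
Irf9: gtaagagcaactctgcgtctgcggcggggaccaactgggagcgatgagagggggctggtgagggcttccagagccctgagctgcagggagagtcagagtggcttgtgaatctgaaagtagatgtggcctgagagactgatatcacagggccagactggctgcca

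For Irf3 the 68 bases between its first start and that of Bcl2l12 on the other strand are shown, chr7:44997580-44997647, because the peaks lie on both sides of them.
Irf3: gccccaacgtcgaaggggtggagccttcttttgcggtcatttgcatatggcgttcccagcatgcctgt

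Irf7, which is read from the minus strand, held 2 ISRE cores near its starts. Both lay inside the gene, 373 and 637 bp downstream of the first start, and preceded inner annotated starts alone. They are shown with 10 bases on each side, chr7:141266090-141266118 first and chr7:141265826-141265854 second. In the first the core is on the opposite strand, so that it reads TTCATTTTC along the gene.
Irf7 upstream site: ctgtttaggtTTCATTTTCctgagatgca
Irf7 downstream site: tcacacttgtGAAACTGAAattcctacct

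GAAANNGAA was searched on both strands of the 250 bases before every annotated start. It was found for 3 of the 7 genes, Irf2, Irf3 and Irf7, while 19.1% of all protein-coding genes had a match. In the 1000 bases before each start it was found for 4 of 7, against 50.1% of all genes. TTCNNNGAA, which reads the same on both strands, was found for Irf2 and Irf8, 2 of 7, against 17.8% of all genes. The 7 genes have 2 to 13 distinct starts each, and with the first start alone the counts were 1 of 7 for the ISRE core and 2 of 7 for the GAS core, against 7.19% and 7.23% of all genes. The matches were then set against the peaks. Of the 9 distinct matches, 4 shared bases with a control peak and 0 with an asthmatic peak. No such share was counted over all genes. Start peaks covered a median of 634 bp in the control list and 397 bp in the asthmatic list over all genes with one. Irf8 had no asthmatic peak that a match could share bases with. The upstream Irf7 core lay 9 of 9 bases inside the control peak and 3 bp outside the asthmatic peak. The Irf3 core, 124 bp downstream of the first start, shared 6 bases with the downstream control peak, which had no counterpart in the asthmatic list. At Irf2 the ISRE core was 39 bp from the nearest control peak and 90 bp from the nearest asthmatic peak, in the stretch around the first starts that no peak covered. At Irf8 the GAS core TTCTCGGAA was wholly inside the upstream control peak, and TTCAGAGAA shared its first base with the end of that peak. The other matches touched no peak: the downstream Irf7 core was 25 bp from the control peak and 267 bp from the asthmatic one, the GAS core TTCCGAGAA of Irf2 was 56 and 107 bp away, and TTCAGGGAA of Irf2 and TTCCAGGAA of Irf8 lay at inner starts, 73416 and 8694 bp from a control peak. A match is a run of letters in these windows and says nothing about binding.

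All 7 genes had a start peak, meaning a peak within 1000 bp of an annotated transcript start, in offspring of control mothers. In offspring of asthmatic mothers 4 of 7 did: Irf2, Irf3, Irf5 and Irf7. Irf4, Irf8 and Irf9 had no peak there, in the gene body or at a start. Of all protein-coding genes, 51.0% had a start peak in the control list and 42.0% in the asthmatic list. Every peak that the rule took was a start peak, so the counts with gene bodies included were also 7 of 7 and 4 of 7, against 58.2% and 51.9% of all genes. Of the 11199 genes with a control start peak, 19.1% had none in the asthmatic list, and among the IRF genes these were 3 of 7. Conversely 1.69% of the 9220 genes with an asthmatic start peak had none in the control list, and no IRF gene was among them.

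**Figure D1:**
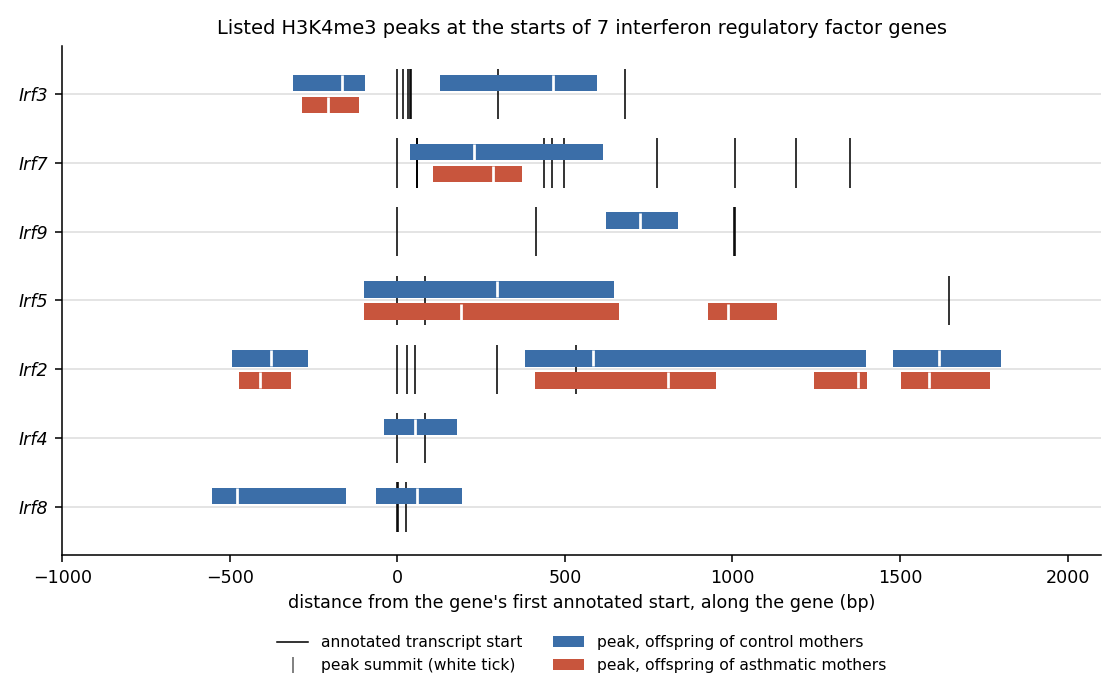
Listed peaks of the 7 genes (bars, blue for offspring of control mothers and red for offspring of asthmatic mothers) against the distance from the first annotated start in bp, with annotated starts as black lines and summits as white ticks. Irf9, Irf4 and Irf8 have blue bars alone, Irf2 has bars on both sides of its first 4 starts in both lists, and the red bars of Irf3 and Irf7 are narrower than the blue ones.

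Peaks at the same place were mostly found again where both lists had any. Of the 11 control peaks 6 overlapped an asthmatic peak, against 70.0% of all control start peaks, and of the 8 asthmatic peaks 7 overlapped a control peak, against 95.6%. The first annotated start itself was under a control peak at Irf4, Irf5 and Irf8, 3 of the 7 genes with a control start peak, against 36.4% of all genes with one. In the asthmatic list this was so at Irf5 alone, 1 of 4, against 15.3%. Of the 55 distinct starts annotated for the 7 genes, 34 lay within 1000 bp of a control peak and 26 within 1000 bp of an asthmatic peak, where 42.2% and 34.6% of all 93526 starts of protein-coding genes did. The alternative starts far inside genes carried no peak, such as the 5 of Irf2 between 53767 and 75273 bp downstream of the first and the start of Irf5 at 14521 bp.

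The caller's fold and p can be solved for the number of fragments at each summit and for the background it was compared with. A listed peak on the lowest background held at least 9 fragments at its summit in the control list and at least 8 in the asthmatic list, so a gene without a listed peak may still carry fewer fragments than that. Above its lowest value the background was a whole number of fragments per 10000 bp, within 0.01, for 99.93% of the peaks in each list, and it is given here as the fragments in the 10000 bp window around a peak. The lowest value was 96.1 fragments per 10000 bp in the control list and 100 in the asthmatic list, a ratio of 1.04. This value would follow sequencing depth if both lists were called with the same settings, which are not given in the sources used here. Each library pools many cells, so fewer marked cells and less mark per cell cannot be told apart. With 1 library per group, neither can be told apart from a difference in immunoprecipitation yield between the libraries. Over the 9064 genes with a start peak in both lists the median summit ratio, asthmatic over control, was 0.613. Intervals on these numbers are exact 95% Poisson intervals and cover counting error only.

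Among the genes activated below nucleic acid sensors, Irf3 (ENSMUSG00000003184.15, chr7:44997648-45002848, plus strand) had a peak upstream of the start in both lists and one downstream in the control list alone. In offspring of control mothers the upstream peak, chr7:44997336-44997551, held 22 fragments at its summit (95% interval 13.8 to 33.3) with a −log10 q of 9.65. Its counterpart in offspring of asthmatic mothers, chr7:44997362-44997533, held 20 (12.2 to 30.9) with a −log10 q of 9.03. These summit counts differed by far less than their counting error, and the 10000 bp windows around them held 157 (133 to 184) and 162 (138 to 189) fragments. The peak downstream, chr7:44997775-44998242, was in the control list alone, with 17 fragments (9.90 to 27.2) and a −log10 q of 5.86, and all 468 of its bases were non-coding exon. The nearest asthmatic peak was 242 bp away. Both peaks left the first 5 starts uncovered, in a gap of 223 bp between them.

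The joined start width, from the first to the last base of peaks at most 1000 bp apart, was 907 bp for Irf3 in the control list and 172 bp in the asthmatic list, a ratio of 0.19. Only 2.88% of the 9064 genes with a start peak in both lists had a smaller ratio. The control width spans the gap between the 2 peaks, and without joining the ratio of the widest peaks was 0.37. Those are peaks at different places, the downstream control peak of 468 bp and the upstream asthmatic peak of 172 bp. The upstream peaks, which overlap between the lists, were 216 bp wide in the control list and 172 bp in the asthmatic list. By −log10 q the standing of Irf3 went up from percentile 12.8 to 61.1 among these genes, while by joined width it shifted by −63.0 points. Its summit ratio of 0.909 was larger than that of 95.1% of them, the median being 0.613. The upstream peak cannot be assigned to Irf3 alone. Bcl2l12, a protein-coding gene on the minus strand, has a start at −69 bp from the first start of Irf3, within 1000 bp of all 3 peaks, and H3K4me3 next to it cannot be told apart from that of Irf3.

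Irf7 (ENSMUSG00000025498.15, chr7:141262706-141266481, minus strand), the interferon-induced amplifier of the response, had the control start peak with the highest −log10 q and fold of the 7 genes, although Irf2 had more fragments at its summit. It ran over chr7:141265869-141266442, from 39 to 612 bp downstream of the first start, in exon sequence that does not code. Its summit held 32 fragments (21.9 to 45.2), the deposited fold, which adds 1 to both the summit and the background, was 8.17, and its −log10 q of 18.3 was at percentile 92.7 of the control list. In offspring of asthmatic mothers the peak was chr7:141266111-141266376, with 17 fragments (9.90 to 27.2) and a deposited fold of 7.01, and its −log10 q of 9.59 was at percentile 73.8. The asthmatic peak lay wholly inside the control peak and was 266 bp wide against 574 bp, a ratio of 0.46. The control window of 10000 bp held 160 fragments (136 to 187), and the asthmatic one was at the lowest value. Fewer fragments were thus listed at this summit in the asthmatic library, but the intervals overlapped, and the summit ratio of 0.531 was above that of 25.4% of genes. Among genes with a start peak in both lists the percentile of Irf7 shifted by −7.74 points from the control to the asthmatic list by −log10 q, and by 8.45 points in the other direction when ranked by fold.

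Irf5 (ENSMUSG00000029771.12, chr6:29526625-29541871, plus strand) had nearly the same peak over its first start in both lists. It covered chr6:29526526-29527269 in the control list and chr6:29526525-29527285 in the asthmatic list, so that the upstream edges were 1 base apart. The control summit held 25 fragments (16.2 to 36.9) with a −log10 q of 9.86, and the asthmatic summit held 18 (10.7 to 28.4) with a −log10 q of 8.74. A further peak, chr6:29527552-29527758 in an intron, was listed in offspring of asthmatic mothers alone. It was weak, with 11 fragments (5.49 to 19.7) and a −log10 q of 3.41, at percentile 2.45 of its list. Joined with it, the Irf5 domain measured 1234 bp against 744 bp, a ratio of 1.66 that exceeded that of 99.2% of genes. Without joining, the widest Irf5 peaks had a ratio of 1.02, so the wider domain rests on that weak peak. In the 10000 bp windows there were fewer fragments in the asthmatic library, 132 (110 to 157) against 203 (176 to 233), and these intervals did not overlap. The window ratio of 0.65 was below that of most genes, whose median was 0.78, while the summit ratio of 0.72 was above that of 76.2% of genes. Among genes with a start peak in both lists Irf5 went from percentile 14.3 to 59.1.

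Irf9 (ENSMUSG00000002325.15, chr14:55603571-55610030, plus strand), the DNA-binding part of the interferon-activated complex, had a narrow peak in the control list alone. It covered the 215 bp of chr14:55604193-55604407, 622 to 836 bp downstream of the first start. Of these, 164 bases were intron and 51 were coding exon. The summit held 18 fragments (10.7 to 28.4) with a −log10 q of 9.76, and its window was at the lowest value of the list. The summit was at −281 bp from its nearest start, the one at 1006 bp. RefSeq places the 2 starts of Irf9 at 414 and 1008 bp from the first GENCODE start, and the peak is between them. The nearest peak of the asthmatic list was 12149 bp away. Of the 632 genes whose control −log10 q was within 0.5 of that of Irf9, 29.1% had no asthmatic start peak.

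Irf2 (ENSMUSG00000031627.9, chr8:46739732-46847458, plus strand), the antagonist of ISRE activation, had the widest joined start domain of the 7 genes in both lists. The control domain was chr8:46739239-46741532, 2294 bp made of 3 peaks, and the asthmatic domain was chr8:46739259-46741498, 2240 bp made of 4. These widths stood at percentiles 99.72 and 99.91 of the joined widths of all genes with a start peak, whose medians were 663 and 409 bp. The width ratio of 0.98 was larger than that of 90.6% of genes. Without joining, the widest Irf2 peaks were 1015 and 540 bp and their ratio was 0.53, below the median of 0.64 for all genes, so the near-equal width is that of the joined domain alone. In both lists the domain left the first 4 starts open, in a gap of 648 bp in the control list and 729 bp in the asthmatic list. A non-coding gene, Gm16675, starts in this gap on the minus strand, at −217 bp from the first start of Irf2, and the upstream peak cannot be told apart from a peak of its own.

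The Irf2 domain had nearly the same outer edges in both lists, and its summits were lower in offspring of asthmatic mothers. The asthmatic upstream edge rests on a weak peak, with a −log10 q of 4.47 at percentile 13.6 of its list. With peaks of −log10 q of at least 5 alone that peak is lost, and the asthmatic domain starts downstream of the gap. Its control summits held 38, 30 and 34 fragments in order along the gene, with −log10 q of 15.4, 9.51 and 12.3. The asthmatic summits held 16, 19, 18 and 19 fragments, with −log10 q of 4.47, 6.47, 5.79 and 6.50. The lowest control summit was thus above the highest asthmatic one, although the interval of the highest control summit, 26.9 to 52.2, overlapped that of the highest asthmatic summit, 11.4 to 29.7. The 10000 bp windows held 304 fragments (271 to 340) in the control library and 211 (183 to 241) in the asthmatic library, and these intervals did not overlap. The window ratio of 0.69 was above that of 21.7% of genes with both windows above the lowest value, and the summit ratio of 0.50 above that of 15.6%. The bases under Irf2 start peaks fell from 1563 to 1117, a ratio of 0.71 where the median gene had 0.63. Its standing by −log10 q dropped from percentile 54.5 to 27.5 among genes with a start peak in both lists, while by joined width it shifted by 0.24 points. The best control peak was the first along the gene and the best asthmatic peak the last. This standing and the summit ratio thus compare peaks at different places. The 3 genes whose place in both lists was most like that of Irf2, by percentile of −log10 q and of joined width, were Sept2, Rictor and Otud4, at distances of 5.46, 6.01 and 8.96 percentile points among 9063 genes. Their joined widths were 1590, 1420 and 1382 bp in the control list and 1234, 1665 and 1053 bp in the asthmatic list, all below those of Irf2.

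**Figure D2:**
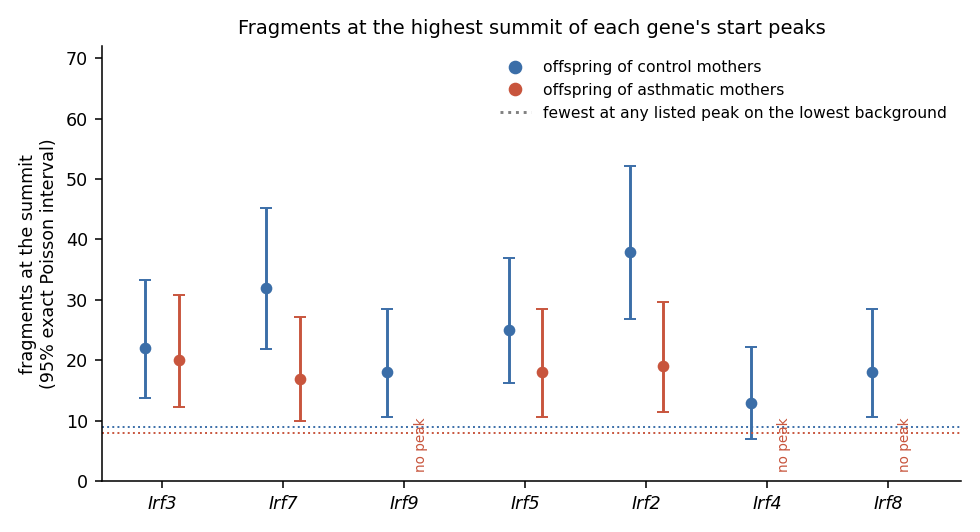
Fragments at the highest summit of each gene's start peaks with exact 95% Poisson intervals, for offspring of control mothers (blue) and of asthmatic mothers (red), with dotted lines at the fewest fragments of any listed peak on the lowest background. Irf2 goes from 38 to 19 and Irf7 from 32 to 17, Irf3 from 22 to 20, and the 3 genes without a red point held 13 to 18 in the control library.

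The lineage-restricted genes Irf4 and Irf8, which pair with factors such as PU.1 and BATF, had start peaks of low to middling rank in the control list and none in the asthmatic list. Irf4 (ENSMUSG00000021356.10, chr13:30749226-30766976, plus strand) had the weakest best peak of the 7 genes. It was chr13:30749185-30749404, 220 bp over both annotated starts, with 13 fragments at the summit (6.92 to 22.2) and a −log10 q of 4.53, at percentile 9.76 of the list. Of its bases 168 were non-coding exon. The nearest asthmatic peak was 48516 bp away. Of the 201 genes with a control −log10 q within 0.5 of this value, 76.6% had no asthmatic start peak. With peaks of −log10 q of at least 5 alone, Irf4 had no control peak either.

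Irf8 (ENSMUSG00000041515.10, chr8:120736358-120756694, plus strand) had 2 control peaks. The one over the start, chr8:120736295-120736550, held 18 fragments at its summit (10.7 to 28.4) with a −log10 q of 8.80 at percentile 57.9. The one upstream, chr8:120735806-120736205, held 14 (7.65 to 23.5) with a −log10 q of 5.52, and all of its 400 bp lay outside the gene. A gap of 89 bp separated them, and joined they measured 745 bp. The nearest asthmatic peak was 22065 bp from the upstream peak and 22554 bp from the one over the start. Of the 554 genes with a like control −log10 q, 36.8% had no asthmatic start peak (exact 95% interval 32.8 to 41.0). The 250 bases before the first Irf8 start had a GC content of 67.2% and an observed to expected CpG ratio of 1.03, against 62.8% and 0.446 for Irf4.

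**Figure D3:**
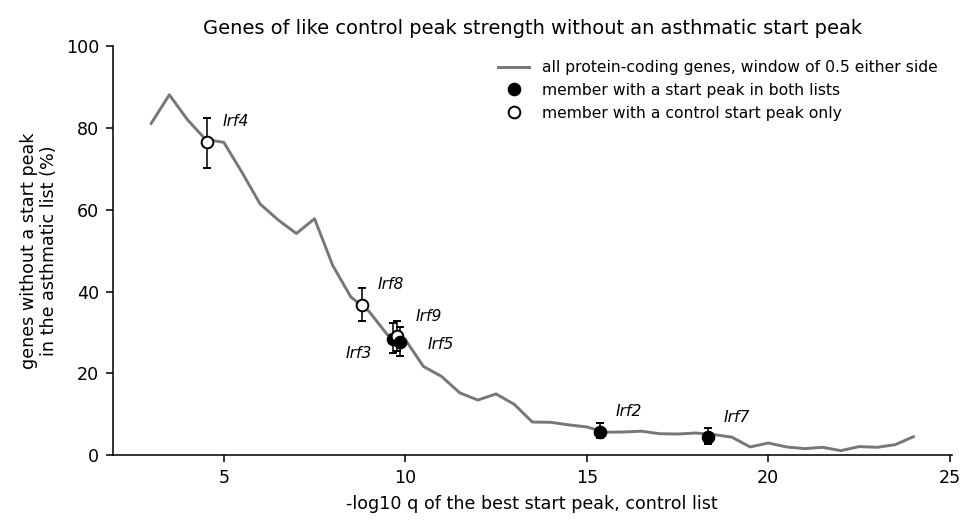
Share of protein-coding genes without an asthmatic start peak (%) against the −log10 q of the best control start peak (line, windows of 0.5 either side), with the 7 genes at their own −log10 q (exact 95% intervals, open points for genes with a control peak alone). Irf9 (open) lies beside Irf3 and Irf5 (filled) near 28% to 29%, Irf4 is at 76.6%, and Irf2 and Irf7 are below 6%.

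Read against peaks of like strength, the 7 genes divide as follows. Irf2 and Irf7 belonged to the strong control peaks, for which 42 of 723 and 21 of 477 genes had no asthmatic start peak, and both had one. Irf3, Irf5 and Irf9 had almost the same control −log10 q, between 9.65 and 9.86, for which 27.8% to 29.1% of genes had none, and of these Irf9 had none. Irf8 and Irf4 were the weakest. Among the 7 genes the absent start peaks were therefore at the weakest, the next weakest and the fourth strongest by control −log10 q.

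**Figure D4:**
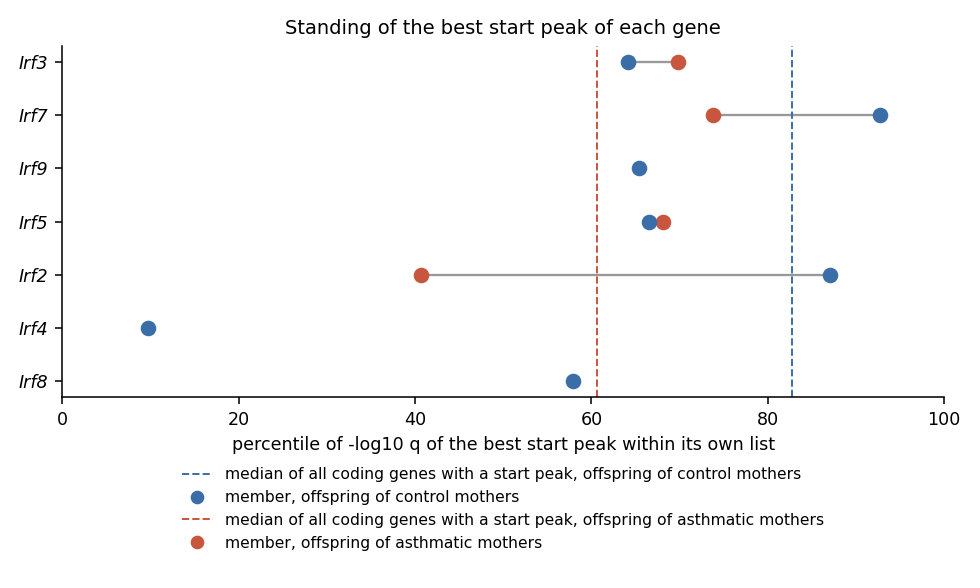
Percentile of the −log10 q of each gene's best start peak within its own list, for offspring of control mothers (blue) and of asthmatic mothers (red), with dashed lines at the medians of all protein-coding genes with a start peak, 82.7 and 60.7. In blue 5 of the 7 genes lie left of the blue line, and in red Irf2 alone lies left of the red line.

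The median over the genes with a start peak was percentile 65.4 of the control list for the 7 genes, with 82.7 for all 11199 genes, and percentile 69.0 of the asthmatic list for the 4 genes, with 60.7 for all 9220. Irf2 and Irf7 were above the median gene in the control list and the other 5 below it. The 2 medians of the IRF genes are not over the same genes, since the 3 without an asthmatic peak are missing from the second.

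Joined widths varied widely among the 4 genes with a start peak in both lists. Their ratios of asthmatic to control width were 0.19 for Irf3, 0.46 for Irf7, 0.98 for Irf2 and 1.66 for Irf5, around a median of 0.66 for all 9064 genes. A domain at least 1.5 times narrower was seen at 2 of 4 genes, against 50.5% of all genes, and a domain at least 1.5 times wider at 1 of 4, against 1.17%. The median joined width was 744 bp for 7 genes in the control list, where all genes had 663 bp, and 750 bp for 4 genes in the asthmatic list, where all genes had 409 bp. Without joining the medians were 468 bp against 542 bp for all genes in the control list and 403 bp against 351 bp in the asthmatic list, so that in the control list the IRF genes were then below the median of all genes.

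**Figure D5:**
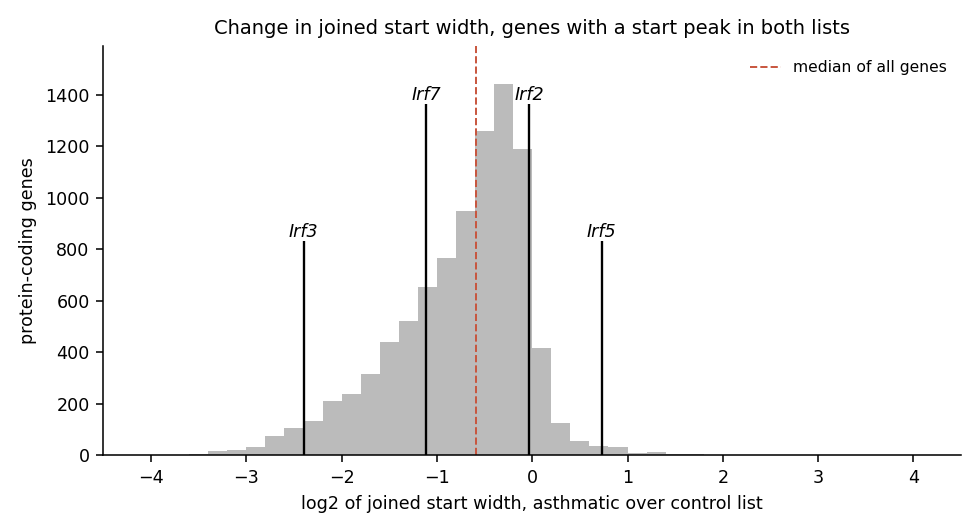
Histogram of log2 ratios of joined start width, asthmatic over control list, for 9064 protein-coding genes with a start peak in both lists, with the median as a dashed line and the 4 IRF genes as black lines. Irf3 lies far in the left tail, Irf7 left of the median, Irf2 near 0 and Irf5 in the right tail.

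The promoters also differed in base composition. Within 500 bp of the first start the GC content ran from 52.5% at Irf7 to 70.3% at Irf5, with a median of 54.7% over all genes. The CpG ratio fell into a low set, Irf7 (0.319), Irf9 (0.327) and Irf4 (0.364), and a high set of Irf2 (0.698), Irf8 (0.735), Irf3 (0.740) and Irf5 (0.786), with a median of 0.552 over all genes. Both sets held genes with and without an asthmatic start peak. The 75 bases around each of the 19 summits occurred once in the assembled chromosomes, with near-identical copies not searched. Repeat-masked bases made up at most 30.8% of a peak, at the downstream control peak of Irf3.

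Around the IRF genes, 27 of 32 genes of the interferon and pattern-recognition pathway had a control start peak and 25 an asthmatic one, where 51.0% and 42.0% of all genes did. Of the 27, 2 had none in the asthmatic list, where 19.1% of all genes with a control start peak had none. All 4 interferon receptor genes, all 5 genes of the kinase and STAT group and all 3 IRF2-binding co-regulators had start peaks in both lists, as did 10 of 14 sensors and adaptors and 3 of 6 DNA-binding partners. Tlr3, the endosomal sensor of double-stranded RNA, and Traf3, an adaptor that leads to IRF3 and IRF7, had start peaks in the control list alone. Their −log10 q there was 21.1 and 15.1, well above those of Irf4, Irf8 and Irf9. The pathway had no gene with an asthmatic start peak alone. Among the DNA-binding partners Batf, Ikzf1 and Tcf3 had start peaks in both lists, with −log10 q of 12.5 and 8.65 for Batf. Start peaks were absent from both lists at the other partners, Spi1, which encodes PU.1, Spib and Batf3, and at Tlr7 and Tlr9.

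Of 12 ILC2 markers 9 had a control start peak and 6 an asthmatic one, beside the same 51.0% and 42.0% of all genes, and 3 of the 9 had none in the asthmatic list. Il1rl1 (which encodes ST2), Rora, Il2ra, Thy1, Areg and Il17rb had them in both lists, and Gata3, Il7r and Il5 in the control list alone. Markers of cells in which Irf4, Irf5 and Irf8 are prominent were mostly without start peaks: 0 of 6 for macrophages and monocytes, 0 of 5 for B cells and 0 of 5 for T cells in each list, and 1 of 6 for dendritic cells, Zbtb46, in both. Of 4 epithelial markers, Epcam and Cdh1 had start peaks in the control list and none did in the asthmatic list. Epithelial markers thus differed between the lists in the same direction as Irf4, Irf8 and Irf9, as did the ILC2 markers Gata3, Il7r and Il5 and the 19.1% of all genes, and the opposite direction was seen for 1.69%. Cells were sorted as CD45+, and the part of the cells that carry these markers in the result was not tested. The control list was also the one with higher summits, with a median of 21 fragments over all peaks against 18, and with 30.3% of its peaks at protein-coding starts against 19.5%.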

How the data were processed

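Each group had 1 H3K4me3 CATCH-seq library of lung ILC2s. Per the labels and methods, the authors trimmed reads with Trim Galore and Cutadapt, used Bowtie 2 for alignment to GRCm38, and dropped duplicates. No peak caller is named for these data in the sources used here, and it is not given whether the input library was used. The study's reporting summary says that peak calling and a quality check were not done on the ChIP-seq, yet a list was deposited for each library, and every value here rests on those lists. The deposited peak lists hold a score (10 times the −log10 q, rounded down), the authors' fold ratio of summit over background, and −log10 of the p-value and q-value as deposited by the authors from a caller that is not named. These are not scaled between libraries and were ranked within each list.

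Peaks were read at GRCm38 positions counted from 1, with starts from GENCODE. Summit fragments and background were solved from fold and p under a Poisson model, with 1 added to summit and background in the fold alone, within 0.001 for 100% of peaks, and assume calling without a control library. The unit of 10000 bp assumes a fragment length equal to the smallest peak width. Shares have exact Clopper-Pearson 95% intervals. Overlap, joining and solving were checked on simulated data. Python 3.11.15, pandas 2.3.3 and scipy 1.17.1 were used.

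The genes, lists and comparisons were chosen with earlier results of these data known. Genes were named by a rule: the 7 members, genes whose start shares their peaks, the 3 genes most like the member with the widest control domain, pathway genes with a start peak in 1 list, and markers with a start peak. Gm16675, Spi1, Spib, Batf, Batf3, Ikzf1, Tcf3, Tlr7 and Tlr9 were named after their values were seen. Alternatives changed the peaks used, distance, starts, overlap, joining, ranking and motif search.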

Additional observations from a re-analysis of the deposited data

How the results depend on the processing

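No paired analysis was possible because each group had 1 library. Of 138 alternative values, 101 stayed within 1.5 times the reported value (counts, widths and width ratios) or within its counting error (percentiles and shifts), 34 moved further and 3 changed sign. The strictest choice, which took 10000 peaks per list by −log10 p, left 2 genes and 3 peaks in the control list (Irf2 and Irf7) and 0 genes and 0 peaks in the asthmatic list, with 0 shared peaks on both sides. The share of all protein-coding genes that keep a start peak under this choice was not counted, so these counts cannot be set against it. The control median percentile was then 57.4 and the control median width 447.5 bp. Under this choice 4 pathway genes kept an asthmatic start peak, ILC2 markers were 2 in each list, dendritic cell markers 0 in each and epithelial markers 1 in the control list. When −log10 q had to reach 5, the median percentiles were 59.4 and 62.0 and the asthmatic dendritic cell markers 0. Within 500 bp of a start 5 ILC2 markers had a control start peak, and within 2000 bp 1 epithelial marker had an asthmatic one. Without joining, the median widths were 468 and 403 bp (542 and 351 bp for all genes) and the width ratios 0.53 for Irf2, 0.37 for Irf3 and 1.02 for Irf5. The ratio of Irf3 sets its downstream control peak against its upstream asthmatic peak. Ranked by fold, the median percentiles were 62.4 and 69.8, and the percentile shifts, asthmatic minus control, were −5.54 for Irf2, 31.3 for Irf3, 41.4 for Irf5 and 8.45 for Irf7, where the shift by −log10 q was −7.74. Ranked by joined width, the median percentiles were 76.8 and 69.7 and the shifts 0.24 for Irf2, −63.0 for Irf3 and −9.22 for Irf7, against −27.0 and 48.3 by −log10 q for Irf2 and Irf3. Whether a gene rose or fell in rank therefore depends on the measure for Irf3 and Irf7. Irf2 fell by −log10 q and by fold. By joined width it was near the top of both lists, where it could hardly rise. Summits of 11 to 38 fragments limit every comparison of single peaks.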
